A study of Mus musculus with 14 samples.

Results

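The 6 genes *Snai1*, *Snai2*, *Zeb1*, *Zeb2*, *Twist1* and *Twist2* were followed in forelimb buds that lacked *Smad4* in their mesenchyme and in control forelimb buds, at 2 stages of early limb bud development. They were found by their symbols among the 23284 gene symbols in the count tables, where each of the 6 had 1 row. RNA was sequenced from 14 samples of NMRI mouse embryos, each made from both forelimb buds of 1 embryo. Embryos of 30 somites (E10.0) gave 3 wild-type and 4 *Smad4*Δ/Δc samples, and those of 35 somites (E10.5) gave the same numbers. The mutants carried 1 constitutive null allele of *Smad4* and 1 allele inactivated by the PrxCre transgene (PrxCreT/+), whereas the samples called wild type were *Smad4*+/+ and carried the same transgene, so that the presence of CRE was shared by all groups. PrxCre is driven by a *Prrx1* promoter element and acts in limb mesenchyme. Cells of the mutant bud in which the transgene is not active, such as those of the ectoderm and the blood, therefore kept 1 functional allele, and the buds were sequenced whole, without sorting.

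Snail proteins (encoded by *Snai1* and *Snai2*) and ZEB proteins (encoded by *Zeb1* and *Zeb2*) are zinc finger repressors that bind E-boxes, short DNA elements found in front of E-cadherin and other epithelial genes, and they are best known for driving epithelial cells into a mesenchymal state. TWIST1 and TWIST2 are basic helix-loop-helix proteins that bind E-boxes as dimers, with each other, with HAND2 or with the widely expressed E proteins, and ID proteins take up E proteins and so keep them from DNA. In limb buds these factors are made by the mesenchyme itself, TWIST1 is needed for bud outgrowth and patterning, and BMP and TGFβ ligands, whose signals pass through SMAD4, are known inducers of several of them in other tissues.

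To show what stands directly upstream of the genes, the 250 bases before the transcription start are printed for *Snai1* and *Twist1*, which fell together in the mutant, and for *Twist2*, the close relative of *Twist1* that did not pass the test between genotypes. The sequences come from RefSeq on GRCm38.p6, a later assembly than the mm9 of the counts, read 5′ to 3′ on the strand of the gene, at chr2:167537945-167538194 for *Snai1*, chr12:33957421-33957670 for *Twist1* and chr1:91801211-91801460 for *Twist2*, all on the plus strand. Capitals mark GTCT or its complement AGAC (the core of the element bound by SMAD proteins), GGCGC or GCGCC (a GC-rich element that SMAD proteins can also contact) and CAGGTG or CACCTG (the E-box preferred by Snail and ZEB proteins).
Snai1: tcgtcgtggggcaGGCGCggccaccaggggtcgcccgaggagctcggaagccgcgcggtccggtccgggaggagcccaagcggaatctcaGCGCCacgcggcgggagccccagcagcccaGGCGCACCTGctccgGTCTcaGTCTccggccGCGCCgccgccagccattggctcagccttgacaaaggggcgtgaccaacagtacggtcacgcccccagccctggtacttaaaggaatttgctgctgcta
Twist1: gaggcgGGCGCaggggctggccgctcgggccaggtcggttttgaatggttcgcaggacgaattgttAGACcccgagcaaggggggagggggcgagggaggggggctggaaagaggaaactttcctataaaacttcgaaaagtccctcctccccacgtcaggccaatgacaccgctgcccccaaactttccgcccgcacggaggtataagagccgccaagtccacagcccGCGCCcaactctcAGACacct
Twist2: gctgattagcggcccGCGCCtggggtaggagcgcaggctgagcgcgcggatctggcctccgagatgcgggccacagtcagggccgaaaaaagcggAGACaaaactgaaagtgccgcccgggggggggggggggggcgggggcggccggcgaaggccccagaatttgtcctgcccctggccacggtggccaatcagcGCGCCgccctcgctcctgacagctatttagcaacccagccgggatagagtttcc
All 3 motifs were searched on both strands. In *Snai1*, GTCT was found 115 and 109 bases upstream of the start, and GGCGC 237, 160, 130 and 99 bases upstream, counted to the leftmost base of each match. The only CAGGTG match, 126 bases upstream of the *Snai1* start, shares its first base with the last base of the GGCGC match before it. *Twist1* had GTCT matches 184 and 8 bases upstream and GGCGC matches 244 and 21 bases upstream, and *Twist2* had 1 GTCT match 155 bases upstream and GGCGC matches 235 and 54 bases upstream. Of all 32851 mouse windows of this length, 82.9% held GTCT, 32.0% held GGCGC and 17.2% held CAGGTG. The *Snai1* window was the only one of these 3 with a CAGGTG match, and it held no other E-box of the general form CANNTG, which 66.2% of all windows hold. None of the 4 windows of *Zeb2*, which has several start sites, held CAGGTG. The set of windows used here held none for *Snai2*, which also fell in the mutant, or for *Zeb1*. These matches describe letters only, and no binding was measured in these samples.

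In the mm9 assembly, *Snai1* lies at chr2:167363695-167368314 on the plus strand, *Snai2* at chr16:14705945-14709488 (plus), *Zeb1* at chr18:5591858-5775465 (plus), *Zeb2* at chr2:44839154-44972915 (minus), *Twist1* at chr12:34642536-34644682 (plus) and *Twist2* at chr1:93698038-93744605 (plus). The merged exons of the GENCODE models measure 1621 bases in *Snai1*, 2031 in *Snai2*, 9712 in *Zeb1*, 15368 in *Zeb2*, 1616 in *Twist1* and 1329 in *Twist2*. Reads were counted without regard to strand, so transcripts from the opposite strand of *Zeb1* and *Zeb2* could in principle affect their counts. Reads that fitted more than 1 gene were set apart as ambiguous (1.49% to 1.75% per sample) and counted for none. The transcript antisense to *Zeb2*, *Gm13476*, did not exceed 0.426 CPM (reads per 1000000 counted reads) in any sample, and *Gm10125*, antisense to *Zeb1*, did not exceed 0.0613. These levels do not include ambiguous reads.

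Between 34066930 and 61691258 reads per sample fell on genes, and the 6 genes had between 489 reads (*Zeb2* in 1 mutant at E10.5) and 9712 reads (*Twist1* in 1 wild-type sample). *Smad4* itself was 161 ± 8.42 CPM (SD, n=3) in wild type and 39.7 ± 4.18 (n=4) in mutants at E10.0, with 166 ± 2.27 against 37.0 ± 3.43 at E10.5, without overlap at either stage. Markers of limb bud mesenchyme (6 genes, *Prrx1* and *Tbx5* among them) summed to between 913 and 1390 CPM in the 14 samples, in keeping with the tissue label, and those of ectoderm and its apical ridge (9 genes) to between 175 and 313. The mutant samples numbered 4 and 5 stood apart at both stages: *Rn45s*, the ribosomal RNA precursor, took 1.72% to 8.05% of their reads, against 0.151% to 0.478% in the other 10 samples. The other 2 mutants of each stage had shares of 0.151% to 0.456%, close to those of wild type, so the genotypes were also compared without the 4 samples. Changed calls of the 6 genes, and of listed genes that are named in the same comparison, are given with their value without these samples. Genes named only for such a change were picked after their values were seen. The fit without the 4 samples called more genes in all at E10.0 than the fit to all samples. A larger count within a list there is therefore not read as a result about the list. All values below are CPM after trimmed-mean (TMM) scaling, and a gene was called differentially expressed when edgeR's exact test gave a Benjamini-Hochberg false discovery rate (FDR) of at most 0.1 and the fold change was at least 1.2. All 6 genes were among the 12393 that passed the filter on low counts.

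Per kilobase of merged exons, *Twist1* was the most abundant of the 6 transcripts in each group and *Zeb2* the least. In wild type at E10.0 the level per kilobase was 109 ± 1.88 CPM (SD, n=3) for *Twist1*, 29.5 ± 5.22 for *Snai1*, 13.2 ± 0.664 for *Snai2*, 12.6 ± 1.60 for *Twist2*, 9.26 ± 0.578 for *Zeb1* and 1.02 ± 0.0865 for *Zeb2*. Of the neighbours in this order, *Snai2* and *Twist2* overlapped between samples and the others did not. In mutants at E10.0 the order was not the same, as *Snai2* (9.19 ± 0.550, n=4) stood below *Twist2* (12.9 ± 0.295) and *Zeb1* (12.7 ± 0.573). At E10.5 the order differed between genotypes as well. In wild type *Twist2* (14.5 ± 0.436 CPM per kilobase, n=3) stood below *Snai1* (21.2 ± 3.69) and *Snai2* (15.9 ± 0.872) and above *Zeb1* (9.53 ± 0.501). In mutants *Twist2* (16.5 ± 0.463 CPM per kilobase, n=4) stood above *Snai1* (11.2 to 14.7), *Snai2* (10.7 ± 0.724) and *Zeb1* (10.7 ± 0.893), and the last 3 overlapped. Only the place of *Zeb1* depended much on the length taken: with its longest coding transcript, 5.81 kilobases in place of 9.71, its level in wild type at E10.0 was 15.5 ± 0.967 and came after *Twist1* and *Snai1*. With this length *Zeb1* in mutants at E10.5 was 17.9 ± 1.49, above *Twist2* in the mean and overlapping with it between samples.

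**Figure D1:**
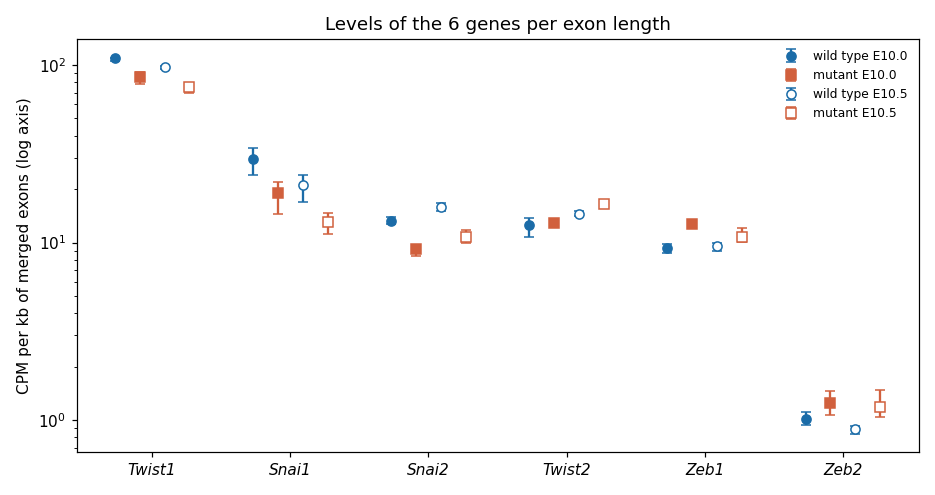
Levels of the 6 genes in CPM per kilobase of merged exons on a log axis, with circles for wild type, squares for mutants, filled symbols for E10.0 and open symbols for E10.5; symbols are group means and bars run from the lowest to the highest sample (n=3 wild type, n=4 mutant). *Twist1* lies between 70.0 and 110 in all samples and *Zeb2* between 0.839 and 1.48, and the order of the 4 genes in between differs among the groups.

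The comparison of mutant with wild-type buds asks how these factors respond to the loss of *Smad4*. At E10.0, *Snai1*, *Snai2* and *Twist1* were lower and *Zeb1* was higher in *Smad4*Δ/Δc forelimb buds, that is 4 of the 6 genes, where 6.61% of all 12393 tested genes were called (3.33% higher, 3.28% lower). At E10.5, *Snai1*, *Snai2* and *Twist1* were again lower, 3 of the 6, where 3.73% of tested genes were called (2.19% higher, 1.54% lower). *Zeb2* and *Twist2* passed the test at neither stage. Without mutant replicates 4 and 5 the log2 fold changes, given for E10.0 and then for the later stage, were -0.73 and -0.85 for *Snai1* and -0.46 and -0.58 for *Snai2*, and *Zeb1* was at 0.46 at E10.0, all of them still called. Fewer cells expressing a gene and less RNA per cell cannot be told apart in these whole buds.

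**Figure D2:**
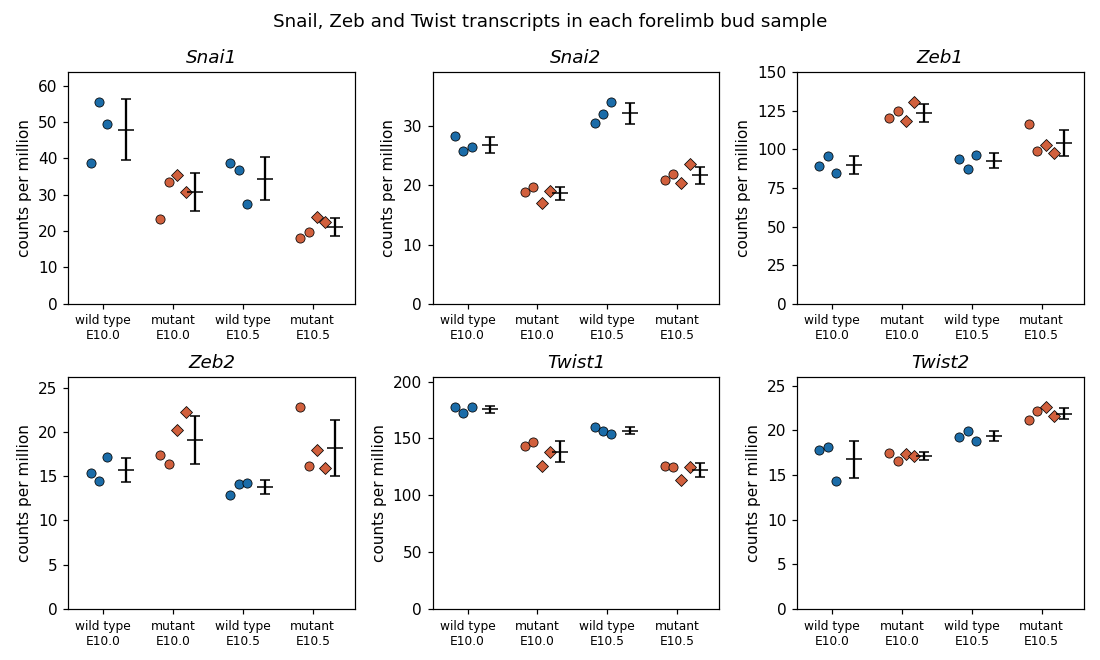
Each panel shows 1 gene in CPM on a linear axis from 0, with 1 symbol per sample, blue for wild type (n=3 per stage) and orange for *Smad4*Δ/Δc (n=4 per stage), diamonds for the mutant samples numbered 4 and 5, and the group mean with its SD beside the symbols. The mutant samples lie below all wild-type samples of their stage for *Snai1*, *Snai2* and *Twist1* and above them for *Zeb1* at both stages, including E10.5, where *Zeb1* did not pass the test. The share of all tested genes whose groups did not overlap is not given here.

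*Snai1*, the Snail gene most often activated early in epithelial-mesenchymal transitions, measured 38.7, 55.4 and 49.4 CPM in the 3 wild-type samples at E10.0 and 23.4, 33.6, 35.4 and 30.6 CPM in the 4 mutants. The groups did not overlap, and wild-type replicate 1, the lowest control, was still above mutant replicate 4, the highest mutant. The fall was 1.56-fold, with a log2 fold change of -0.64 ± 0.20 (SE) and an FDR of 0.00199 by edgeR's exact test. At E10.5 the wild-type samples had 38.7, 36.9 and 27.6 CPM and the mutants 18.2, 19.8, 23.8 and 22.4. Each mutant was again below each control, by 1.64-fold in the fitted means (log2 fold change -0.71 ± 0.17, FDR 0.000373, exact test). *Snai1* was the most variable of the called genes, with a coefficient of variation of 12.0% to 17.7% within the 4 groups.

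*Snai2* (Slug), the paralogue that marks migratory mesenchyme and neural crest, separated the genotypes more tightly. At E10.0 it measured 28.4, 25.7 and 26.5 CPM in wild type and 18.9, 19.7, 17.1 and 19.1 CPM in mutants, and at E10.5 30.5, 32.0 and 34.1 CPM against 20.9, 21.9, 20.3 and 23.7. No mutant reached the lowest control of its stage. The log2 fold change was -0.52 ± 0.058 (SE) at E10.0, a 1.44-fold fall with an FDR of 1.84e-05, and -0.57 ± 0.064 at E10.5, a 1.49-fold fall with an FDR of 1.18e-06 (exact test). By *P* value *Snai2* took rank 60 of the 12393 tested genes at the earlier stage and rank 53 at the later one. The remaining Snail gene, *Snai3*, had at most 2 reads in any sample and was not tested.

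*Zeb1*, the more abundant ZEB gene per kilobase, moved the other way at E10.0. Wild-type samples had 89.4, 95.8 and 84.6 CPM and mutants 120.0, 125.1, 118.2 and 130.6. Each mutant was above each control, and the rise was 1.37-fold (log2 fold change 0.46 ± 0.060, FDR 2.49e-05, exact test). At E10.5 the wild-type samples had 93.9, 87.2 and 96.7 CPM and the mutants 116.6, 98.8, 103.0 and 97.8. The groups still did not overlap, but mutant replicate 1 stood above the other 3, which were close to the highest control, and the difference did not pass the test (log2 fold change 0.17 ± 0.072, FDR 0.488). Whether the effect of genotype on *Zeb1* differed between the stages is taken up with the interaction below.

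*Zeb2*, which encodes a ZEB protein first isolated as a partner of SMAD proteins, had 15.4, 14.5 and 17.1 CPM in wild type and 17.4, 16.4, 20.2 and 22.2 CPM in mutants at E10.0, with overlap (log2 fold change 0.28 ± 0.12, FDR 0.259, exact test). Here the 2 high values were mutant replicates 4 and 5, and without the 4 mutant samples of high *Rn45s* the log2 fold change was 0.13 (FDR 0.592). At E10.5 the values were 12.9, 14.1 and 14.3 CPM in wild type and 22.8, 16.2, 17.9 and 15.9 in mutants. These groups did not overlap, and the log2 fold change of 0.40 ± 0.12 just missed the threshold with an FDR of 0.105. It passed in 4 of 9 alternative analyses and in 5 of the 14 fits that left out 1 sample. For example, it passed at 0.51 (FDR 0.022) when mutant replicates 4 and 5 were left out and at 0.41 (FDR 0.0717) by DESeq2. It fell to 0.28 (FDR 0.417) without mutant replicate 1, the highest sample. That sample also had the highest summed level of the macrophage markers (26.2 CPM, against 13.2 to 19.2 in the other 6 samples at E10.5) and of the endothelial markers (362 CPM, against 301 to 338). *Zeb2* is known to be expressed in macrophages and endothelium. The ectoderm and ridge markers of mutant replicate 1 summed to 175 CPM, the lowest at E10.5 (234 to 248 in the other samples). The part of its cell make-up in the level of *Zeb2* was not tested.

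*Twist1*, the most abundant of the 6 genes, had 177.3, 172.0 and 177.3 CPM in wild type at E10.0 and 143.2, 146.7, 125.9 and 138.0 CPM in mutants. The controls lay close together, with a coefficient of variation of 1.73%, and above the highest mutant. The fall was 1.27-fold (log2 fold change -0.34 ± 0.050, FDR 0.00167, exact test), and without mutant replicates 4 and 5 it was -0.26 (FDR 0.0127), just under the 1.2-fold threshold. At E10.5 the wild-type samples had 159.8, 156.7 and 154.3 CPM and the mutants 125.5, 125.2, 113.2 and 124.8, again without overlap. The fitted fall was 1.28-fold (log2 fold change -0.36 ± 0.039, FDR 0.00063), and it passed the test without mutant replicates 4 and 5 as well (-0.31, FDR 0.00323).

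*Twist2* (Dermo1), its paralogue in mesenchyme and dermis, had 17.7, 18.2 and 14.3 CPM in wild type and 17.5, 16.6, 17.3 and 17.1 CPM in mutants at E10.0. The mutants lay inside the range of the controls (log2 fold change 0.03 ± 0.10, FDR 0.919, exact test). At E10.5 the wild-type samples had 19.3, 19.9 and 18.8 CPM and the mutants 21.1, 22.1, 22.6 and 21.6. All 4 mutants were above all controls, by a log2 fold change of 0.18 ± 0.031 that did not pass the test (FDR 0.603). Thus, per kilobase, there were 8.74 ± 1.28 *Twist1* transcripts (SD, n=3) for each *Twist2* transcript in wild type at E10.0 and 6.66 ± 0.528 (n=4) in mutants, and 6.68 ± 0.183 and 4.60 ± 0.331 at E10.5, where the highest mutant ratio was 4.88 and the lowest wild-type ratio 6.47. For the other pairs the ratio overlapped between genotypes at E10.0, at 1.71 to 2.70 in wild type and 1.55 to 2.59 in mutants for *Snai1* to *Snai2*, and at 7.82 to 10.4 and 9.24 to 12.1 for *Zeb1* to *Zeb2*. At E10.5 the *Snai1* to *Snai2* ratio overlapped again (1.01 to 1.59 and 1.09 to 1.47). That of *Zeb1* to *Zeb2* was lower in mutants, at 8.11 to 9.73 against 9.77 to 11.5 in wild type, ranges that lay next to each other without overlap. These ratios were not tested.

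**Figure D3:**
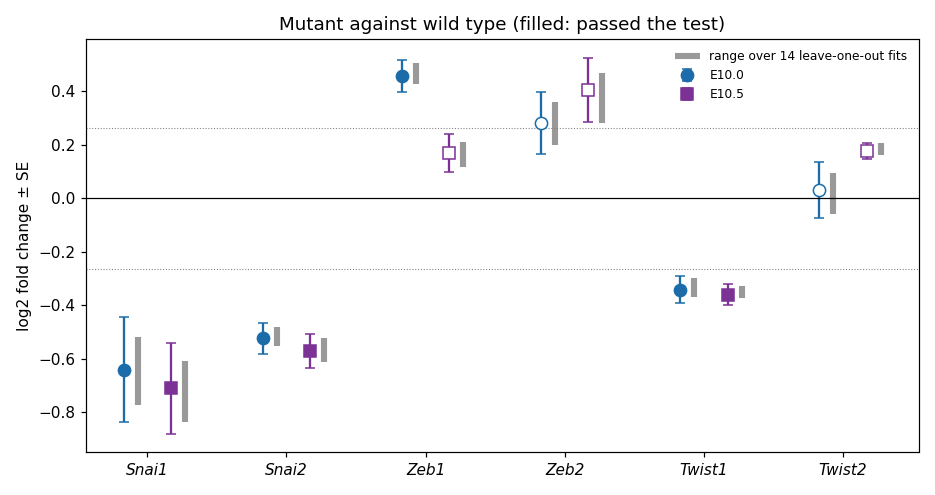
Log2 fold change of mutant against wild type for the 6 genes at E10.0 (circles) and E10.5 (squares), with the SE from replicates as bars; filled symbols passed the exact test, grey bars span the fits that left out each of the 14 samples in turn, and dotted lines mark the 1.2-fold threshold. *Snai1*, *Snai2* and *Twist1* lie below the lower line at both stages, *Zeb1* lies above the upper line at E10.0 and at 0.17 at E10.5, and *Twist2* lies near 0 at E10.0.

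Among the 7 genes for E proteins and ID proteins, the dimer partners of TWIST factors and their inhibitors, all were tested, 1 rose and 3 fell at E10.0, and 1 rose and 4 fell at E10.5. The median log2 fold change of the 7 was -0.41 at E10.0 and -0.64 at E10.5, beside medians of -0.017 and -0.010 over all tested genes. *Id1* fell from 40.1 ± 8.45 CPM (SD, n=3) to 17.0 ± 3.72 (n=4) at E10.0 (log2 fold change -1.24 ± 0.22, FDR 4.63e-14, exact test) and from 34.9 ± 2.49 to 13.9 ± 0.438 at E10.5 (-1.33 ± 0.062, FDR 5.48e-16). *Id3* fell from 82.9 ± 21.5 to 35.2 ± 9.60 CPM at E10.0 and from 57.7 ± 11.3 to 22.2 ± 3.52 at E10.5, and *Id2* by log2 fold changes of -0.41 and -0.64. *Tcf4*, an E protein gene, rose from 252 ± 14.4 to 331 ± 34.6 CPM at E10.0 (0.40 ± 0.087, FDR 0.00379) and from 314 ± 23.4 to 436 ± 37.3 at E10.5 (0.48 ± 0.086, FDR 0.000167). The fourth gene that fell at E10.5 was *Id4*, named here after its values were seen, from 1.89 ± 0.364 to 0.934 ± 0.194 CPM. The quasi-likelihood test gave the same counts at both stages. *Tcf3* and *Tcf12*, which encode the other E proteins, passed at neither stage. Without mutant replicates 4 and 5, *Tcf3* was called lower at E10.0 (-0.49, FDR 0.0017, against -0.22 over all samples) and *Id4* was no longer called at E10.5 (-0.78, FDR 0.101). The counts were then 1 higher and 4 lower at the first stage and 1 higher and 3 lower at the second.

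**Figure D4:**
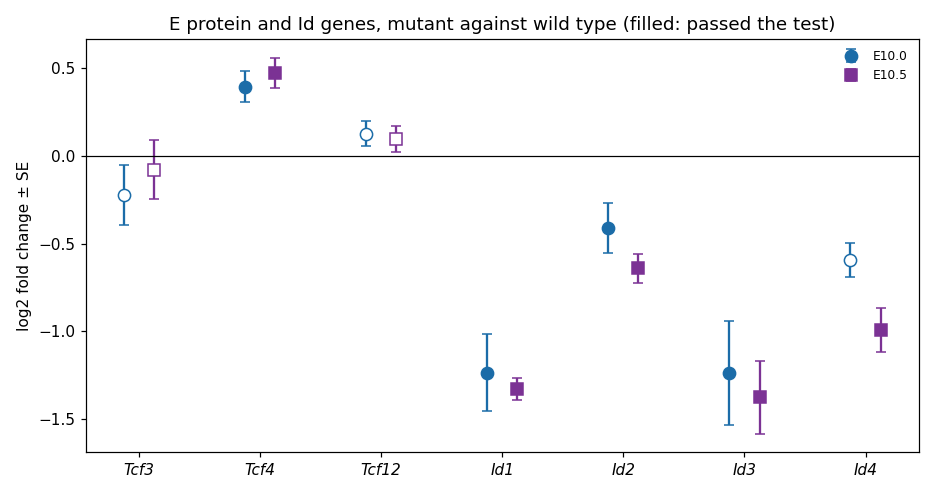
Log2 fold change of mutant against wild type, with the SE from replicates, for the 3 E protein genes and the 4 *Id* genes at E10.0 (circles) and E10.5 (squares); filled symbols passed the exact test. *Id1* and *Id3* lie below -1 at both stages, and *Tcf4* lies at 0.40 and 0.48.

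Of 12 relatives of the Snail and Twist genes, 6 passed the filter on low counts. At E10.0, *Tcf15* (paraxis) rose, from 3.64 ± 0.277 to 5.22 ± 1.07 CPM (FDR 0.0845), and *Bhlha9*, a limb-associated helix-loop-helix gene, fell from 11.9 ± 2.20 to 7.40 ± 1.32 (FDR 0.0325). At E10.5, *Scx* (scleraxis), a marker of tendon progenitors, rose from 8.70 ± 1.04 to 15.5 ± 2.68 CPM (log2 fold change 0.83 ± 0.15, FDR 0.000831), and *Tcf15* again from 4.54 ± 0.690 to 6.64 ± 0.980 (FDR 0.0843). Without mutant replicates 4 and 5 the *Tcf15* rise no longer passed (FDR 0.218 at E10.0 and 0.362 at E10.5). *Hand2*, a direct dimer partner of TWIST1, was 57.1 ± 5.84 CPM in wild type and 54.5 ± 10.5 in mutants at E10.0, with 66.0 ± 4.16 against 60.2 ± 8.46 at E10.5, within the spread of the samples, but without mutant replicates 4 and 5 it was called lower at both stages. Of the 14 corepressor and chromatin partners of these factors, 13 were tested and 0 were called between genotypes at either stage by the exact or the quasi-likelihood test of edgeR (an unadjusted *P* under 0.05 was found for 2 of them at E10.0, and for 1 at the later stage), with a median log2 fold change of -0.0052 at E10.0 and -0.010 at E10.5. In the fit to the other 10 samples, *Ctbp1*, a corepressor bound by ZEB proteins, was called lower at E10.0 (-0.27, FDR 0.0252, against -0.21 and FDR 0.161 over all samples). Of 12 genes that act on the stability of the Snail, ZEB or TWIST proteins, 11 were tested, and *Ctdsp1*, which encodes a phosphatase that acts on SNAI1 and on SMAD proteins, fell at E10.0 from 135 ± 8.58 to 112 ± 8.72 CPM (log2 fold change -0.27 ± 0.076, FDR 0.0524, exact test). At E10.5, 0 of the 11 were called by either edgeR test, and 0 had an unadjusted *P* under 0.05.

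Epithelial genes known to be repressed by Snail and ZEB proteins were measured in the same samples, where they also mark the ectoderm, in which PrxCre is not active. Of 23, 21 were tested, and at E10.0 4 fell and 0 rose, with a median log2 fold change of -0.21 and a negative value in 19 of the 21. *Krt5*, a keratin of basal ectoderm, fell from 42.5 ± 3.27 to 32.3 ± 3.03 CPM (log2 fold change -0.40 ± 0.091, FDR 0.0485, exact test), and the claudin genes *Cldn3*, *Cldn4* and *Cldn7*, which encode tight junction proteins, by -0.72, -0.51 and -0.44. By the quasi-likelihood test 0 of the 21 were called at E10.0, and without mutant replicates 4 and 5 *Krt5* alone of these 4 passed the exact test. At E10.5, 0 of the 21 were called by either edgeR test, 3 had an unadjusted *P* under 0.05, and the median was -0.15. *Cldn7* was called lower at E10.5 (-0.54, FDR 0.0397) when mutant replicates 4 and 5 were left out. *Cdh1*, which encodes E-cadherin, was 52.2 ± 8.15 CPM in wild type and 46.1 ± 7.46 in mutants at E10.0 (FDR 0.521), and 46.7 ± 2.36 and 44.6 ± 6.16 at E10.5 (FDR 0.963). The 9 ectoderm and ridge markers, 6 of which are also in the epithelial list, summed to 246 to 313 CPM in wild type and 200 to 285 in mutants at E10.0, and to 234 to 245 and 175 to 248 at E10.5.

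Of 17 mesenchymal genes, all were tested, and 1 rose and 2 fell at each stage. *Prrx2*, a homeobox gene of limb mesenchyme, fell from 88.2 ± 5.65 to 43.7 ± 7.28 CPM at E10.0 (log2 fold change -1.01 ± 0.13, FDR 1.07e-11, exact test) and from 69.8 ± 8.90 to 39.4 ± 5.76 at E10.5 (-0.83 ± 0.15, FDR 1.03e-07), and *Prrx1* fell by -0.29 and -0.32. The gene that rose was *Tnc* at E10.0 (1.68 ± 0.67, FDR 0.0314) and *Pdgfra* at E10.5 (0.32 ± 0.12, FDR 0.0996), which encode a matrix protein and a receptor of mesenchymal cells. The medians of the 17 genes were 0.035 and 0.043. Without mutant replicates 4 and 5, 5 genes fell at the earlier stage and 1 at the later one, and the quasi-likelihood test over all samples called 1 of the 17, lower, at each stage. The mesenchyme marker list overlaps this one in *Prrx1*. Its 6 genes summed to 1070 to 1280 CPM in wild type and 913 to 1130 in mutants at E10.0, and to 1330 to 1390 and 1110 to 1190 at E10.5, and the exact test called 2 of the 6 lower at E10.0 but 1 at the later stage (0 by the quasi-likelihood test at both). The sum was lower in mutants at E10.5, and overlapped at E10.0. *Prrx1* made up most of it. It went from 865 ± 42.6 to 693 ± 59.7 CPM at E10.5. Of the 6 markers, 5 had negative log2 fold changes and 1 a positive one at each stage (medians -0.125 and -0.132). *Tbx5* measured 111 ± 12.3 CPM in wild type and 89.9 ± 12.8 in mutants at E10.0, but 135 ± 0.918 and 132 ± 10.8 at the later stage. *Fgf10* was then lower without overlap (52.9 ± 2.47 and 47.8 ± 1.93) but not called. *Lhx9* (207 ± 9.82 and 190 ± 15.0) and *Hand2* were lower with overlap, and *Hoxd11* was slightly higher (24.3 ± 1.21 and 25.9 ± 2.62). Without mutant replicates 4 and 5 *Prrx1* was called at neither stage (FDR 0.123 and 0.362). In that fit 3 of the 6 markers were called lower at E10.0 and 1 at E10.5. They were *Tbx5* (-0.47, FDR 0.000106) and *Lhx9* (-0.32, FDR 0.0163) at E10.0, and *Hand2* at both stages (-0.31 at each). The sum moved beside *Snai1*, *Snai2* and *Twist1*. The part of this difference in the falls of the 3 genes was not tested.

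Markers of other cell types were summed in the same way, and those of macrophages, mesothelium and neural crest were at low levels. The 7 macrophage markers summed to 2.78 to 6.34 CPM in wild type and 7.92 to 10.2 in mutants at E10.0, where 3 of the 4 tested rose, and to 13.2 to 16.4 and 15.5 to 26.2 at E10.5, where 0 of 4 were called by either edgeR test and 0 had an unadjusted *P* under 0.05. Leaving out mutant replicates 4 and 5, *Cx3cr1*, a macrophage receptor gene, was called higher at E10.5 (0.71, FDR 0.0396), beside *Zeb2*. The 6 markers of mesothelium and body wall summed to 8.27 to 11.6 CPM in wild type and 15.8 to 29.6 in mutants at E10.0, where 3 of the 5 tested rose, among them *Wt1* and *Upk3b*, and to 11.0 to 13.8 and 6.38 to 10.3 at E10.5, where 2 fell. Those 2 were *Wt1* and *Upk3b* again, with 0 lower by the quasi-likelihood test, 2 at an unadjusted *P* under 0.05, and both lost without mutant replicates 4 and 5 (FDR 0.193 and 0.36). Neural crest and Schwann cell markers (8 genes, 1 tested) summed to 11.2 to 16.8 CPM over all samples, mostly from *Erbb3*, the gene tested, which was called lower in mutants at E10.5 (-0.42 ± 0.029, FDR 0.0394, but 0.182 without mutant replicates 4 and 5), and *Foxd3* was at 0 in wild type at E10.0. Endothelial markers (8 genes) summed to 297 to 341 CPM in wild type and 318 to 373 in mutants at E10.0, with 1 of 8 lower, and muscle precursor markers (6 genes) to 80.4 to 95.5 and 83.5 to 109, with 1 of the 4 tested, *Myf5*, higher. Of the 7 red blood cell markers, *Hba-a1* was at 0 in all samples, and the sums of 2650 to 5090 CPM overlapped between genotypes at both stages, with 0 of the 4 tested called by either edgeR test (0 and 1 at an unadjusted *P* under 0.05). For the endothelial and the muscle precursor markers the later stage gave 0 calls by either edgeR test and 1 gene each at an unadjusted *P* under 0.05. These sums moved with genotype at E10.0 for macrophages and mesothelium, beside the rise of *Zeb1*, and their part in it was not tested.

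The comparison of stages asks how the same genes changed between 30 and 35 somites. In wild type, *Snai1* fell from 47.9 ± 8.46 CPM (SD, n=3) at E10.0 to 34.4 ± 5.98 at E10.5, 1 of the 6 genes called, where 10.1% of all tested genes were called (5.39% higher, 4.74% lower). The ranges touched, since wild-type replicate 1 had 38.7 CPM at both stages, and the log2 fold change was -0.48 ± 0.21 (FDR 0.0492, exact test). This call rested on single samples: it was lost without wild-type replicate 2 (-0.36, FDR 0.366) or 3 (-0.45, FDR 0.173) of E10.0, without replicate 3 of E10.5 (-0.33, FDR 0.436), and by the quasi-likelihood test (FDR 0.109). *Snai2* went the other way, from 26.9 ± 1.35 to 32.2 ± 1.77 CPM without overlap, but missed the FDR threshold (log2 fold change 0.26 ± 0.060, FDR 0.105) and passed by DESeq2 (0.27, FDR 0.0174) and without mutant replicates 4 and 5 (0.28, FDR 0.0301), which enter only the dispersion and the filter here. *Twist1* was lower at E10.5 in each sample, at 157 ± 2.76 against 175 ± 3.04 CPM, without passing the test (-0.16 ± 0.020, FDR 0.261), and *Zeb1* (0.04 ± 0.067), *Zeb2* (-0.19 ± 0.079) and *Twist2* (0.21 ± 0.11) did not pass either.

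In *Smad4*Δ/Δc buds, *Snai1* fell and *Twist2* rose between the stages, 2 of the 6 genes, where 19.2% of all tested genes were called (10.8% higher, 8.4% lower). *Snai1* went from 30.7 ± 5.27 CPM (SD, n=4) to 21.1 ± 2.52 (log2 fold change -0.55 ± 0.15, FDR 0.00171, exact test), and 3 of the 4 samples of E10.0 were above all 4 of E10.5. *Twist2* went from 17.1 ± 0.393 to 21.9 ± 0.616 CPM without overlap, a 1.28-fold rise (0.35 ± 0.025, FDR 0.00269). *Zeb1* (-0.25 ± 0.066, FDR 0.0152), *Snai2* (0.21 ± 0.062, FDR 0.0878) and *Twist1* (-0.18 ± 0.060, FDR 0.0738) met the FDR threshold with fold changes under 1.2, which *Zeb1* (FDR 0.256) and *Snai2* (FDR 0.417) did not without mutant replicates 4 and 5. *Zeb2* did not meet it (-0.06 ± 0.15, FDR 0.798). The wild-type and mutant groups of each stage enter both the genotype and the stage comparisons, so that the values are given side by side and no agreement between them is counted.

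Among the E protein and *Id* genes, *Tcf4* rose between the stages in both genotypes (log2 fold change 0.32 ± 0.078 in wild type, FDR 0.0374, and 0.40 ± 0.095 in mutants, FDR 0.000211, exact test), and *Id3* (-0.66 ± 0.24, FDR 0.00376) and *Id2* (-0.31 ± 0.079, FDR 0.012) fell in mutants beside *Snai1*. In wild type *Id3* was at -0.52 ± 0.265 (FDR 0.115) and *Id2* at -0.078 ± 0.144 (FDR 0.75), neither called. Without mutant replicates 4 and 5, *Id3* was called lower in wild type too (-0.51, FDR 0.0893). Of the relatives, *Scx* rose from 3.66 ± 0.723 to 8.70 ± 1.04 CPM in wild type and from 5.19 ± 1.14 to 15.5 ± 2.68 in mutants, *Msc* rose and *Bhlha9* fell in both genotypes, and *Hand1* fell in mutants but did not pass the filter on low counts without mutant replicates 4 and 5. Of the 21 epithelial genes tested, 2 fell in wild type (*Cldn7* and *Grhl2*), and 4 fell and 2 rose in mutants. By the quasi-likelihood test 1 of the 21 fell in wild type, and the counts in mutants were as by the exact test. With mutant replicates 4 and 5 left out the exact test gave 5 lower in wild type, and 8 lower and 1 higher in mutants. The share of all tested genes called in that fit is not given here, so these counts are not set against those over all samples. Of the mesenchymal genes, *Col1a2*, a fibrillar collagen gene, rose in both, by 0.59 ± 0.22 and 0.87 ± 0.14. Of the 13 corepressor genes tested, *Prmt5* fell between the stages in mutants (-0.31 ± 0.060, FDR 0.000751), whereas in wild type 0 passed either edgeR test and 1 had an unadjusted *P* under 0.05. Of the 11 stability factors tested, 0 passed either edgeR test in either genotype and 0 had an unadjusted *P* under 0.05. All 4 macrophage markers tested rose between the stages in both genotypes, with medians of 1.76 and 1.13. Of the 5 mesothelium and body wall markers tested, 2 rose in wild type (median 0.94), and 3 fell and 1 rose in mutants (median -2.18). *Wt1* went from 1.46 ± 0.517 to 3.18 ± 0.875 CPM in wild type and from 7.58 ± 2.77 to 1.17 ± 0.698 in mutants. *Upk3b* also went in opposite directions (0.97, not called, and -4.14). *Upk1b* rose in both genotypes (0.94 and 0.89), and *Lrrn4* (-0.53 and -2.18) and *Krt19* (-0.02 and -0.29) had negative values in both. The part of these markers in the stage differences of *Snai1* and *Twist2* was not tested.

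**Figure D5:**
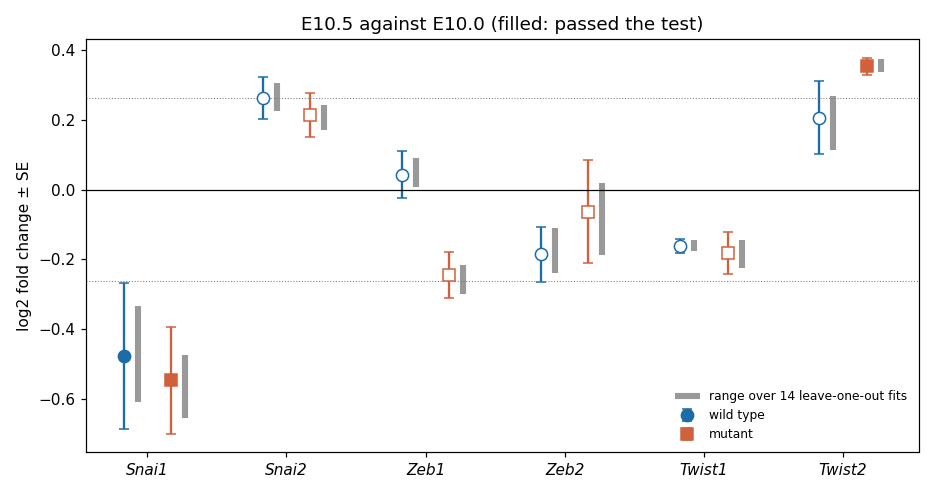
Log2 fold change of E10.5 against E10.0 for the 6 genes in wild type (circles) and mutants (squares), with the SE from replicates; filled symbols passed the exact test, grey bars span the 14 fits that left out 1 sample each, and dotted lines mark the 1.2-fold threshold. *Snai1* lies at -0.48 and -0.55, and *Twist2* lies at 0.21 in wild type and 0.35 in mutants.

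Whether the effect of genotype differed between the stages was tested with an interaction term in edgeR's quasi-likelihood model. By this test 0 of the 6 genes passed an FDR of 0.1, where 0.186% of all tested genes did (0.0565% higher, 0.129% lower), and 0 passed by DESeq2. At an unadjusted *P* under 0.05 there was 1, *Zeb1*, with a difference of -0.29 ± 0.094 (log2, SE) between the genotype effects (FDR 0.681). Of all 12393 tested genes, 714 had such a *P* by the same test. The differences for the other 5 genes ran from -0.07 for *Snai1* to 0.15 for *Twist2*. A different response of *Zeb1* at the 2 stages was thus not shown.

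The genes most like each of the 6 across the 14 samples were taken by Pearson's *r* of log2(CPM + 1), as a description over samples that share genotype, stage and depth. For *Snai1* the 4 nearest were *Id3* (*r* 0.963), *Tarbp2* (0.961), *Tgif2* (0.960) and *Asphd2* (0.960), and for *Snai2* they were *Grem1* (0.925), *Cxcr7* (0.924), *Cdo1* (0.921) and *Mtmr11* (0.915). *Twist1* was nearest to *Unc119b* (0.915), *Scd2* (0.912), *Dync1i1* (0.909) and *Suox* (0.898). *Grem1*, which encodes a BMP antagonist of the limb bud, had 23.2 CPM in wild type and 9.96 in mutants at E10.0, with 28.6 against 13.4 at E10.5, the same order of the 4 groups as *Snai2*. The nearest genes of *Zeb1* were *Chd1* (0.953), *Usp7* (0.951), *Nup98* (0.946) and *Scaf11* (0.944), those of *Zeb2* were *Pip4k2a* (0.870), *Pappa2* (0.839), *Sox8* (0.817) and *Sec23ip* (0.812), and those of *Twist2* were *Cdh22* (0.905), *Pdzd2* (0.903), *6030408B16Rik* (0.902) and *Osr2* (0.899). With a pseudocount of 0.1 in place of 1, the 4 nearest genes were unchanged for each gene except *Twist2*, where *Zfp663* entered and *Osr2* left.

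Among the 6 genes themselves, *r* over the 14 samples was highest between *Snai1* and *Twist1* (0.799) and between *Zeb1* and *Zeb2* (0.701), and lowest between *Snai2* and *Zeb1* (-0.817) and between *Snai2* and *Zeb2* (-0.776). Most of this came with the groups. After the mean of each group was taken off, *r* was -0.377 between *Snai1* and *Twist1*, -0.114 between *Snai2* and *Zeb1* and 0.451 between *Zeb1* and *Zeb2*, and the pair with the highest value was *Snai2* and *Twist1* (0.604).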

How the data were processed

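The authors dissected forelimb buds, prepared polyA libraries from total RNA and sequenced single reads of an unstranded library. Per the labels and the methods of the study, reads were aligned to mm9 with TopHat2 2.0.13, and uniquely mapped reads were counted per gene symbol with HTSeq (version not given in the sources used here), without strand. The deposited values are raw counts for 23284 symbols in each of 14 samples. Rows of reads that fit no gene were left out of library sizes (6.18% to 9.86% of counted and uncounted reads fell on no feature).

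edgeR 4.0.16 (R 4.3.3) was run without the 1041 symbols of chromosomes X, Y and M and with a minimum of 1 CPM in 3 or more samples, which kept 12393 genes. Scaling was by TMM, tag-wise dispersion used all 14 samples (prior.df 10), and groups were compared by the exact test, the choice of the study, with Benjamini-Hochberg adjustment over all tested genes. Calls needed an FDR of 0.1 or lower together with a fold change of 1.2 or higher. The interaction used the quasi-likelihood test without a fold threshold. SE were taken from the variance between replicates on the log2(CPM + 1) scale. The tests were tried on simulated data. Gene positions come from the GENCODE annotation of NCBIM37, and 1 list symbol was matched by its older name (*Jub*). The alternatives were the quasi-likelihood test, DESeq2 1.42.0, RLE scaling, no filter, X, Y and M kept, groups fitted apart, samples left out and a replicate block. The quasi-likelihood test without mutant replicates 4 and 5 was added after seeing the data.

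The 6 genes, the lists and the named-gene rule (list members by name only if called, at most the 4 smallest *P* per list and comparison, and the 4 most similar genes) were chosen with earlier results of these data known. Each replicate is 1 embryo. Replicate numbers of the labels were checked for pairing by the correlation of deviations from group means: same-numbered samples of different genotype or of wild type did not deviate together (mean correlations -0.007, -0.156 and -0.157 over 2, 2 and 3 pairs), whereas the 3 same-numbered mutant pairs of the 2 stages did (0.269 to 0.611). So few pairs cannot settle whether samples pair by number. Some mutant pairs with unlike numbers did so too, such as replicate 4 of E10.0 with 5 of E10.5 (0.383) and 1 with 2 (0.349). Pairs that joined a mutant sample numbered 4 or 5 with a mutant sample numbered 1, 2 or 3 were at -0.587 to -0.174. Whether mutant samples pair by number was not tested further. With the block, *Snai1* (log2 fold change -0.46, FDR 0.0517) and *Twist2* (0.33, FDR 0.0276) were still called between mutant stages. No 2 replicates agreed within counting noise.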

Additional observations from a re-analysis of the deposited data

Results flagged for a closer look

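One value stood far from the rest of its group. *Twist1* in mutant replicate 4 at E10.5 was 113 CPM, against 124.8 to 125.5 CPM in the other 3 mutants, a gap that took up 0.943 of the range of the group (past Dixon's critical value for 4 samples). Of the 12 combinations of gene and mutant group examined, 1 was past this value, and chance gives about 1 in 20. The sample is 1 of those with a high share of *Rn45s*. Without it the log2 fold change of *Twist1* between genotypes at E10.5 was -0.33, and the call did not change.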

How the results depend on the processing

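Of the 672 values that the 6 genes took under the alternatives, 637 kept their direction and their side of the threshold, 6 lost a call, 19 gained one and 10 changed sign. *Snai1* and *Snai2* were lower in mutants at both stages, and *Zeb1* was higher at E10.0, in each alternative run. Between genotypes, log2 fold changes of *Snai1* ran from -0.77 to -0.52 at E10.0 and from -0.99 to -0.61 at E10.5 over all alternatives. The *Twist1* call at E10.0 was lost without mutant replicates 4 and 5. Depth limits *Zeb2* most, with at least 489 reads per sample, and then *Snai2* and *Twist2*, with at least 626 and 634.

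Signs changed only in values that passed no test: *Twist2* between genotypes at E10.0 (-0.059 without wild-type replicate 3 of that stage, range -0.059 to 0.093), *Zeb2* between mutant stages (0.213 without mutant replicates 4 and 5, by either edgeR test, and 0.019 without replicate 5 of E10.0, range -0.187 to 0.019), and the interactions of *Snai1* (3 fits, range -0.208 to 0.062), *Twist1* (2 fits, -0.062 to 0.016) and *Zeb2* (1 fit, -0.0074 to 0.205), each with 1 sample left out. The cause was not tested.

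The number of genes called between genotypes at E10.0, 819, was 2018 without mutant replicates 4 and 5, 1895 without them by the quasi-likelihood test, 1990 with the replicate block and 254 to 1062 with 1 sample left out (254 without wild-type replicate 3 of E10.0). With RLE scaling its split was 512 higher and 336 lower, against 413 and 406. At E10.5, 462 became 265 by the quasi-likelihood test without mutant replicates 4 and 5, and 286 to 516 with 1 sample left out. Between wild-type stages, 1256 became 1932 with groups fitted apart, 1899 with the replicate block and 484 to 1515 with 1 sample left out. There, the 1 called gene of the 6 became 0 by the quasi-likelihood test, 2 by DESeq2, with RLE scaling, with groups fitted apart or without mutant replicates 4 and 5 by either edgeR test, and 0 to 2 with 1 sample left out. The interaction, 23 genes, gave 87 by DESeq2, 39 without the filter, 6 without mutant replicates 4 and 5, 7 to 34 with 1 sample left out, and 0 with the replicate block by edgeR's quasi-likelihood test, where 1057 had an unadjusted *P* under 0.05. Of the 6 genes followed here, 2 were among these 1057. Same-numbered wild-type and mutant samples did not deviate together in the mean, but 2 pairs per stage are too few to settle whether they pair. The block changed no call of the 6 genes.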
